A study of Caenorhabditis elegans with 2 samples.

Results

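The mitotic cohesin genes of Caenorhabditis elegans were examined in a ChIP-seq map of LIN-35, the worm pocket protein related to the retinoblastoma tumour suppressor. The 6 genes were taken by name from 19985 annotated protein-coding genes: him-1, smc-3, scc-1, scc-3, coh-1 and wapl-1. All 6 were found in the annotation. For each, every peak summit from 1000 bp before to 300 bp after any annotated transcript start, here called the promoter window, was collected from 4 peak lists on build ce11 (WBcel235).

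Both samples were whole, mixed-sex young adults of strain YL468, biological replicates 1 and 2 of 1 group. The strain carries the unc-119 allele ed3 and the transgene vrIs93. In it the mex-5 promoter, taken from a germline gene, drives LIN-35:GFP:FLAG with the lin-35 3′UTR, beside a rescuing unc-119 copy. Somatic and germline nuclei were sampled together. The labels list no change at the endogenous lin-35 gene, and they name both the eGFP fusion and lin-35 as the target. Which protein was precipitated is therefore not settled, nor whether the peaks come from both kinds of nuclei or only from those holding the fusion. With a single group there was no second condition to test against, and the results below are counts, ranks and positions without p-values.

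Cohesin is a ring that holds sister chromatids together from replication until anaphase and also shapes chromatin loops. A pair of SMC ATPases forms the arms, a kleisin closes the ring and an accessory subunit binds the kleisin. WAPL-type proteins open the ring and release it from DNA, and separase cuts the kleisin at anaphase. LIN-35 does not bind DNA itself. It reaches promoters through E2F and DP partners, and through LIN-54, the subunit of the DREAM complex that recognises short CHR-like elements of cell cycle genes. Of the genes studied, scc-1 and coh-1 encode kleisins, while him-1, smc-3, scc-3 and wapl-1 encode proteins that also work with the kleisins of meiosis.

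The authors' thresholded list reached only wapl-1. Its peak is shown in part, as the 201 bases around the summit at IV:4445824-4446024, because it was the strongest of the group. It is written 5′ to 3′ on the strand of wapl-1 (the minus strand), from the RefSeq sequence of WBcel235, and all of it is intergenic. The capitals mark its only CHR-like element, a match to TTTGAA or TTCGAA on either strand.
wapl-1 summit: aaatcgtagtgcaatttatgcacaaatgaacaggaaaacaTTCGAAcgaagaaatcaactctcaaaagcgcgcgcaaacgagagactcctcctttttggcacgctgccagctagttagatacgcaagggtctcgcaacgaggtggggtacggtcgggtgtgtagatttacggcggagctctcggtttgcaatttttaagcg

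The CHR-like elements nearest to the summits of 4 further genes are shown for comparison, each with 12 bases on either side and in the direction of its gene, the element in capitals. The smc-3 site lies at III:11290686-11290715 (plus strand), the scc-1 site at II:4698337-4698366 (plus strand), the scc-3 site at V:12763802-12763831 (plus strand) and the coh-1 site at X:7475063-7475092 (minus strand). The coh-1 site belongs to the peak at its first start, since the higher coh-1 peak had no such element within 100 bp. him-1 also had an element, centred 40 bp from its best summit, which is not shown here.
smc-3: aaaccctcatttTTCGAAatatccttgtcc
scc-1: ttgaaaaataacTTCAAAacctataaaaat
scc-3: tttagtttattaTTCGAAgttattaaatat
coh-1: tttctgcaaatgTTTGAAgtttttctcaaa

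Such elements were common at other promoters as well, and a difference from them was not tested. A CHR-like element lay within 100 bp of the best pooled summit of 5 of the 6 genes, coh-1 being the exception. The same element was found in 56.2% of the 10222 pooled promoter summits, in 56.2% of equally long stretches just upstream of 19973 nuclear protein-coding starts, and in 65.9% of the 381 thresholded promoter summits. With 50 bp on either side it was found at 3 of the 6, against 34.4% of pooled promoter summits, 33.4% of upstream stretches and 41.7% of thresholded promoter summits. The centre of the nearest element lay 4 bp from the best summit in smc-3, 10 bp in scc-1 and 40 bp in him-1. In scc-3 and wapl-1 it lay 52 and 58 bp away, and in the first-start peak of coh-1 it lay 87 bp away.

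The E2F motif was sought as TTTCCCGC, TTTCGCGC, TTTGCCGC and TTTGGCGC on both strands. It was at none of the 6 best summits within 50, 100 or 150 bp. The share of thresholded promoter summits that held it within 100 bp was 17.1%, against 4.97% of pooled promoter summits and 3.33% of upstream stretches. Nor did any of the 6 hold it in the whole 1301-base window of its first start, where 17.5% of nuclear protein-coding genes did, a search added after the summit windows had been seen. No match says only that these letters are absent from the stretch searched.

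The lists themselves set how far a peak can be read. The thresholded list, which the authors made from both replicates with an irreproducible discovery rate, held 550 peaks, and these were the 550 highest of the pooled list of 30000. Replicate 1 had 30000 lines and replicate 2 had 18226, and by their names all 3 of these longer lists mix peaks with background. The signal is the authors' own value per peak, on a scale that is not given, so peaks are ranked within a list and signals are not compared in size between lists. Read depth is unknown. The last peak inside the threshold had a signal of 24.81 and the first outside it 24.79.

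Of the 6 genes, 1 had a thresholded summit in its promoter window, against 2.77% of all protein-coding genes. All 6 had a summit in the pooled list, where 42.9% of genes did, and in replicate 1, where 42.1% did. The shares over all genes are not matched for window length. The windows cover 2602 bases for him-1, smc-3 and wapl-1, with 2 starts each, 5204 for coh-1 and 1301 for scc-1 and scc-3. In replicate 2 there were 5 of 6, against 29.9%. A summit in both replicates was found for 5 of 6, against 18.6%, scc-3 being the exception. Taking the 1000 highest pooled peaks left the count at 1 (4.51% of all genes), and the 3000 highest added smc-3 (9.56% of all genes). The median pooled rank of the best window peak was 3076.5 for the 6 genes, against 10362 for the 8580 genes that had one. In the longer lists a count is of listed lines, not of lines passing a q cutoff. As −log10 q, the best pooled peaks ran from 0.831 (scc-3) and 0.836 (him-1) to 3.04 (wapl-1). Among the best lines of the 5 genes found in both replicates, him-1 stood at 0.175 in replicate 1 and coh-1 at 1.02 in replicate 2. The others stood at 2.398 or higher. These values run from 0.116 to 3.206 in replicate 1 and from 0.842 to 3.727 in replicate 2, so they are not on a common footing. In replicate 2 the scc-1 line stood at 2.68 but ranked 7859 of 18226.

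**Figure D1:**
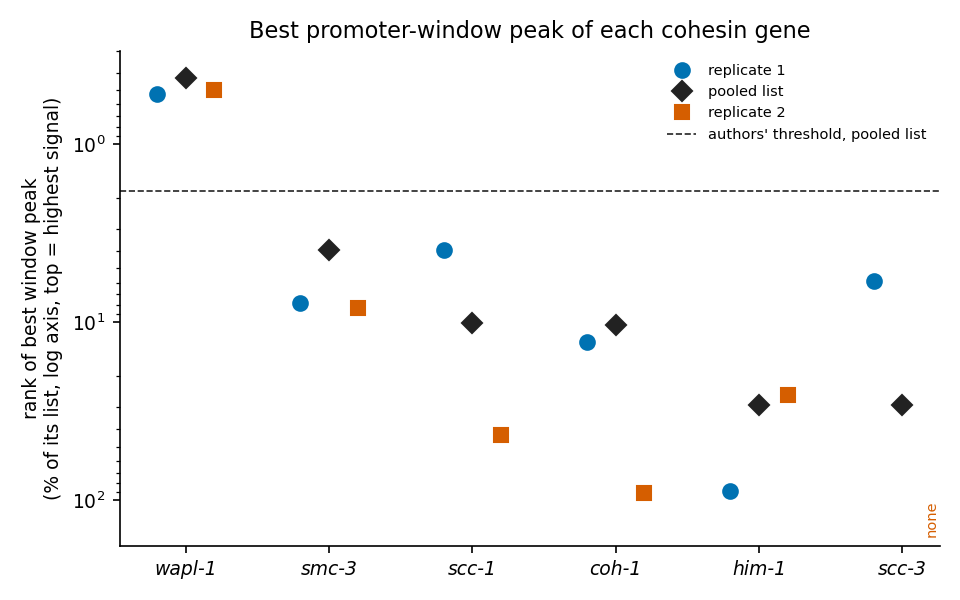
Rank of the best promoter-window peak of each cohesin gene as a percentage of its list (log axis, highest signal at the top), with diamonds for the pooled list, circles for replicate 1 and squares for replicate 2. Only wapl-1 lies above the dashed line of the authors' threshold, at 0.427% of the pooled list, and scc-3 has no value in replicate 2.

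wapl-1 encodes the worm WAPL protein, the factor that releases cohesin. Its thresholded peak (IV:4445746-4446101, gene on the minus strand at IV:4442362-4445740) had a signal of 52.6 and ranked 128 in the pooled list. In replicate 1 the window peak had a signal of 35.1 and ranked 158, and in replicate 2 it had a signal of 19.8 and ranked 91. The 3 lists thus placed it among the highest 0.427% to 0.527% of their lines, and only 0.696% of protein-coding genes had a pooled window peak at least as high. The summits lay 184, 152 and 184 bp upstream of the start in the pooled list, replicate 1 and replicate 2.

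The wapl-1 peak stood between divergent genes. It also fell in the promoter window of htz-1, which encodes the histone variant H2A.Z and is transcribed away from wapl-1. The starts of the pair are 476 bp apart, with the pooled summit 184 bp from wapl-1 and 292 bp from htz-1. By nearest start the peak went to wapl-1, but a peak between divergent starts cannot be given to either gene alone. Sharing of this kind was common, since 53.0% of the 553 genes with a thresholded peak had one that also lay in the window of a protein-coding gene on the other strand. No other thresholded or pooled summit fell in the window of wapl-1.

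smc-3, which encodes one of the cohesin SMC ATPases, had the next highest peak. Its pooled peak (III:11290527-11290882, gene on the plus strand at III:11290904-11306247) had a signal of 17.4 and ranked 1180, below the authors' threshold. Replicate 1 gave a signal of 10.4 at rank 2346 and replicate 2 a signal of 6.77 at rank 1519. These ranks are 7.82% and 8.33% of the lists, the closest match between replicates after wapl-1. The summits lay 199, 163 and 180 bp upstream in the pooled list, replicate 1 and replicate 2, all of them intergenic. Of all protein-coding genes, 5.09% had a pooled window peak at least as high.

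The smc-3 peak was shared by 3 genes. On the opposite strand, mib-1, a relative of the ubiquitin ligase Mind bomb, started 29 bp from the pooled summit, and gly-9, an N-acetylgalactosaminyltransferase gene, started 125 bp from it. Both were nearer than smc-3 itself. A second annotated start of smc-3 lies inside the gene, and its window held only a weak summit of replicate 1 (signal 4.63, rank 16539).

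him-1 encodes the SMC1 partner of SMC-3, and its window was much weaker than that of smc-3. The best pooled peak (I:4957451-4957806, gene on the minus strand at I:4951571-4957667) had a signal of 7.94 and ranked 8743. Replicate 1 held it at a signal of 3.28 and rank 26707, or 89.0% down its list, and replicate 2 at a signal of 4.43 and rank 4667, or 25.6% down. The pooled and replicate 1 summits lay 38 and 27 bp downstream of the first start, in a coding exon, and that of replicate 2 lay 36 bp upstream. A weaker pooled summit (rank 27997) lay in an intron, 682 bp before an internal start. No neighbouring gene shared either peak, and 19.3% of all protein-coding genes had a pooled window peak at least as high as the better one. With a window from 2000 bp before to 500 bp after a start, the best pooled peak of him-1 stood at 21.8% of the list instead of 29.1%.

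scc-1 encodes the mitotic kleisin, the worm RAD21, and its replicates differed. The pooled peak (II:4698184-4698539, gene on the plus strand at II:4698721-4700994) had a signal of 11.9 and ranked 3030. In replicate 1 the signal was 13.4 at rank 1176, 5 bp from the pooled summit. In replicate 2 the only window summit had a signal of 3.49 at rank 7859, and it lay 305 bp from the pooled summit, 664 bp upstream of scc-1 and in a coding exon of rpn-5. A second, weak summit of replicate 1 lay 164 bp upstream (signal 3.54, rank 24411). With a window from 500 bp before to 100 bp after the start, scc-1 no longer had a summit in replicate 2.

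The scc-1 peak lay closer to its neighbour than to scc-1. rpn-5, a proteasome regulatory subunit gene on the opposite strand, starts 294 bp from scc-1, and the pooled summit fell 65 bp inside it, in an intron, against 359 bp upstream of scc-1. The nearest thresholded peak was not at the promoter but beyond the far end of the gene, 3109 bp from the scc-1 start. That peak, with a signal of 38.5 and rank 222, lay in the window of unc-85, a relative of the histone chaperone ASF1. For the other genes without a thresholded peak, the nearest such summit on the chromosome was between 36576 bp (scc-3) and 561458 bp (coh-1) from the first start.

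coh-1 encodes a further kleisin and is the only gene of the 6 on chromosome X. It has 4 annotated starts, so its windows cover 5204 bases against 1301 for scc-1 or scc-3. Among genes with 4 or more starts, 74.3% had a pooled window summit, against 37.1% of genes with 1 start. The higher of its pooled peaks (X:7471358-7471713, gene on the minus strand at X:7465193-7475018) had a signal of 11.7 and ranked 3123, and lay in an intron, 427 bp upstream of an internal start. The other (X:7474987-7475342) had a signal of 9.88 and ranked 4946, 147 bp upstream of the first start.

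The coh-1 peaks ranked far higher in replicate 1 than in replicate 2. In replicate 1 the intron peak had a signal of 8.74 and rank 3876 and the first-start peak a signal of 6.66 and rank 7860, with weaker summits at ranks 29348 and 29371. In replicate 2 no peak overlapped the intron peak. Its only window summit, 23 bp upstream of the first start, had a signal of 2.17 at rank 16559, or 90.9% down that list, so the best window peaks of the replicates are different peaks. Neither pooled coh-1 peak was shared with another gene.

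scc-3 encodes the accessory subunit related to the vertebrate STAG proteins, and its peak was seen in a single replicate. In replicate 1 the window held a summit of signal 11.5 at rank 1758 and another of signal 3.98 at rank 20951. The higher of these lay 276 bp upstream, 96 bp from the better pooled summit. Replicate 2 had no summit in the window. The pooled list held the better peak (V:12763587-12763942, gene on the plus strand at V:12763945-12767933) at a signal of 7.92 and rank 8798, 180 bp upstream in intergenic DNA, and a second summit 28 bp downstream in a coding exon (signal 5.71, rank 17546). The rank in replicate 1 was 5.86% of its list and that in the pooled list 29.3%. abcf-1, an ABC-F ATPase gene on the opposite strand, starts 570 bp from scc-3 and shared both pooled summits.

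**Figure D2:**
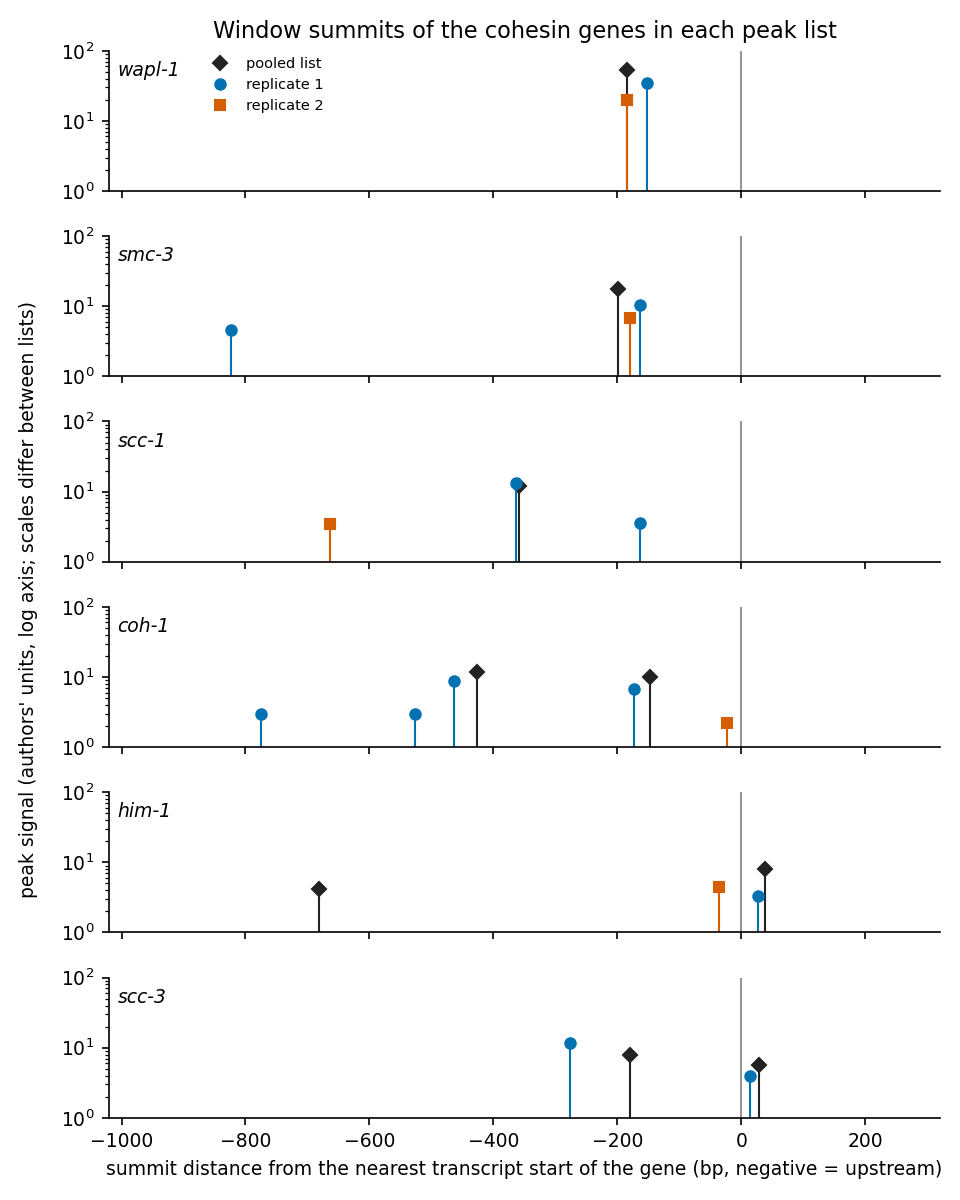
Signal of every promoter-window summit (log axis, authors' units, scales differing between lists) against its distance in bp from the nearest transcript start of the gene, with diamonds for the pooled list, circles for replicate 1 and squares for replicate 2. The wapl-1 and smc-3 summits of all 3 lists gather between 152 and 199 bp upstream apart from 1 weak smc-3 summit. Those of scc-1 are scattered, and those of coh-1 are measured from different starts, so their spread mixes separate peaks.

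The order of the genes by pooled rank was wapl-1, smc-3, scc-1, coh-1, him-1 and scc-3. Replicate 1 alone gave wapl-1, scc-1, scc-3, smc-3, coh-1 and him-1, and replicate 2 alone gave wapl-1, smc-3, him-1, scc-1 and coh-1, with scc-3 unranked. The place of wapl-1 was the same in the 3 orders, and the genes below it changed places. scc-1 and coh-1 were neighbours in the pooled order (ranks 3030 and 3123), as were him-1 and scc-3 (8743 and 8798), and these gaps were smaller than those between replicates for scc-1, coh-1 and him-1. The best pooled summits of the 6 genes had a median position 191.5 bp upstream of the start, against 265 bp for the 8580 genes with a pooled window peak.

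Neighbours shared most of these peaks. For wapl-1, smc-3, scc-1 and scc-3, 4 of the 6, the best pooled peak also lay in the window of a protein-coding gene on the other strand, against 24.3% of the 8580 genes with a pooled window peak. For smc-3 and scc-1 the neighbour's start was nearer the pooled summit, and for wapl-1 and scc-3 the cohesin gene's was. The best peaks of him-1 and coh-1 had no other gene in reach.

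**Figure D3:**
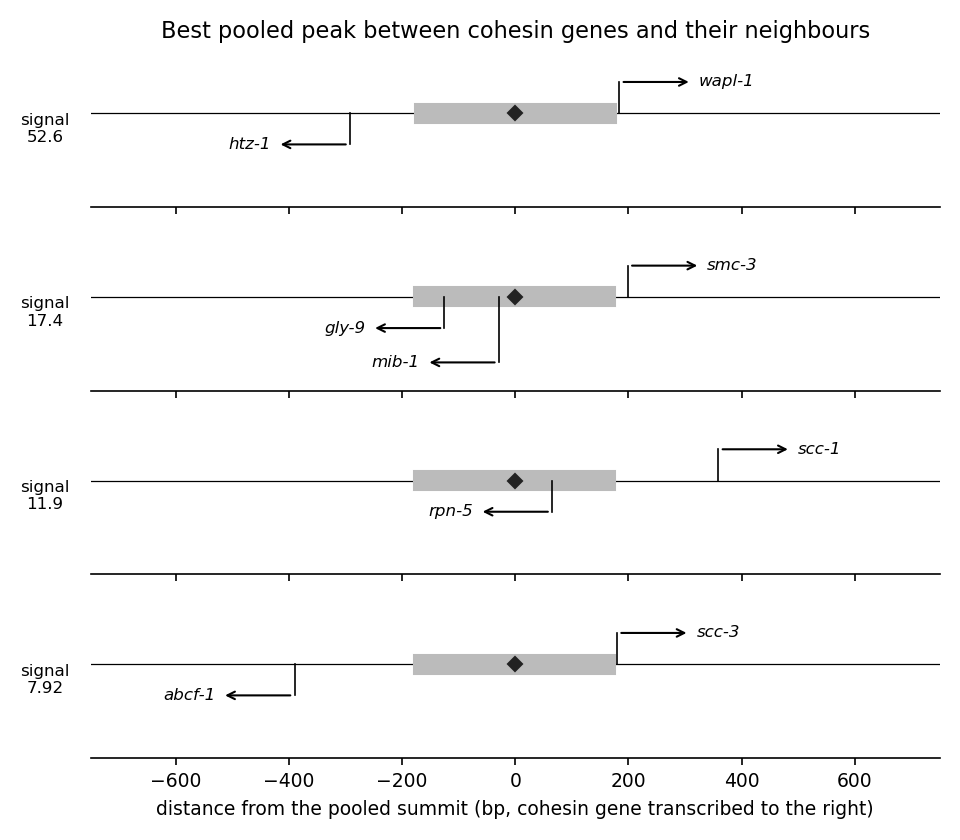
Best pooled peak (grey bar, diamond at the summit) and the transcript starts whose promoter windows hold it, for the 4 cohesin genes that share their peak, as distance in bp from the summit with the cohesin gene transcribed to the right. Arrows give the direction of transcription, and the signal in the pooled list falls from 52.6 for wapl-1 to 7.92 for scc-3.

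The cohesin partner genes gave a comparison list. Its 14 members were the loaders scc-2 and mau-2, the regulators evl-14 (PDS5), eco-1, ctf-18, ctf-4, chl-1, tim-1 and sgo-1, the separase and securin genes sep-1 and ify-1, and the meiotic kleisins rec-8, coh-3 and coh-4. Of these, 5 had a thresholded summit against 1 of the 6 cohesin genes and 2.77% of all genes. The 5 were ify-1, rec-8, coh-3, ctf-4 and tim-1, and the rec-8 peak has a limit set by the transgene, given below. The count was 3 without replicate 1 and 3 without replicate 2, and 2 by nearest start (ify-1 and coh-3). The difference between the lists was not tested. The median pooled rank was 853.5 for the 12 of 14 with a pooled peak.

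The strongest was ify-1, the securin that holds separase inactive, with a pooled signal of 46.3 at rank 165, at ranks 175 and 389 in replicates 1 and 2, and in the window of the ribosomal protein gene rpl-22 as well. The meiotic kleisin gene coh-3 ranked 388, with 549 and 450 in the replicates, and shared its peak with the kinesin gene bmk-1. rec-8, the other meiotic kleisin with a thresholded peak, ranked 251, with 776 and 92 in the replicates. Its peak also lay in the window of mex-5, whose promoter drives the transgene, so signal from the transgene and from the chromosomal copy cannot be told apart there.

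The replication fork genes ctf-4 and tim-1 had ranks of 408 and 536. ctf-4 ranked 298 in replicate 1 and 4056 in replicate 2, while tim-1 ranked 638 and 578. The ctf-4 peak was shared with the elongation factor gene eef-1G and with F17C11.15. The tim-1 peak also lay in the windows of Y75B8A.49, Y75B8A.23 and sls-2.8. By nearest start the peaks of ctf-4, tim-1 and rec-8 did not go to these genes. Next in the pooled order came the shugoshin gene sgo-1 at 799, the loader gene scc-2 at 908 and coh-4 at 1142. No pooled window summit was found for mau-2 or evl-14.

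Condensin, the related SMC complex that compacts chromosomes, and the SMC-5/6 complex of DNA repair gave a list of 11 genes. None had a thresholded summit, and since only 2.77% of all genes had one, a count of 0 in a list this short is near the background. A pooled summit was found for 10 of the 11, all but capg-2, against 42.9% of all genes. Their median rank was 2198.5, and the highest were kle-2 at 1107, hcp-6 at 1355 and smc-6 at 1361. smc-3, at 1180, thus fell between kle-2 and hcp-6, and wapl-1, at 128, stood above all of them.

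**Figure D4:**
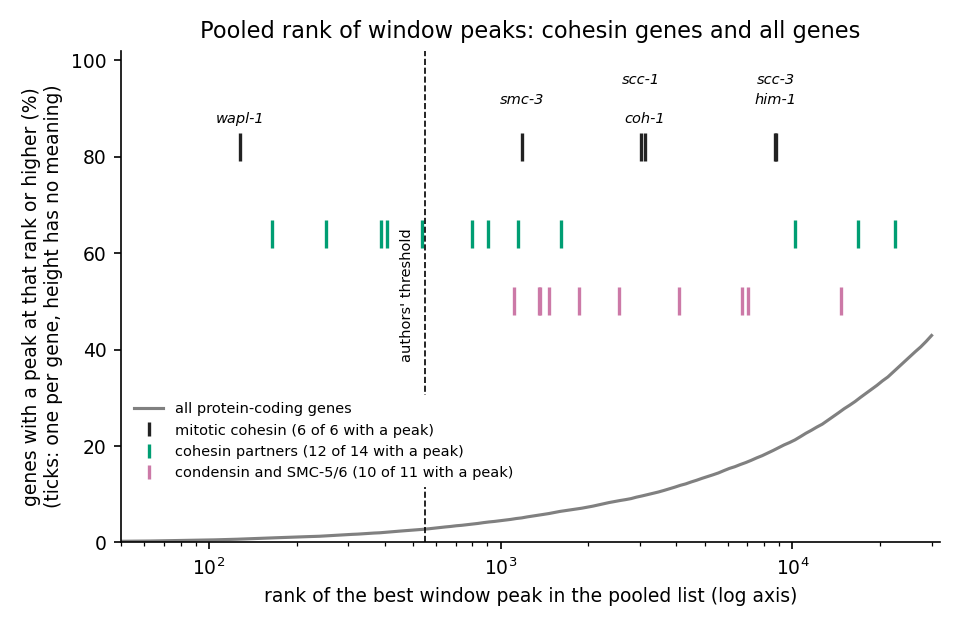
Share of all protein-coding genes whose best promoter-window peak stands at a given rank of the pooled list or higher (grey curve, log axis), with 1 tick per gene for the cohesin genes, their partners and the condensin and SMC-5/6 genes. Left of the dashed line at rank 550 lie wapl-1 of the 6 cohesin genes, 5 of the 14 partners and none of the 11 condensin and SMC-5/6 genes. The 5 partners include rec-8, whose peak has a limit set by the transgene.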

How the data were processed

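LIN-35 ChIP-seq peak lists of 2 biological replicates were used. Per the deposited text notes, the pooled and replicate lists came from alignments set against a control, and the thresholded list was derived from them. The aligner, the caller and the cutoff were not given in the sources used here. Column 7 of the deposited lists was read as signal, and column 9 as the −log10 of a q value, by the convention of the format. The 4 lists on ce10 were not used, because the annotation was of ce11.

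Summits were assigned with the WBcel235 annotation of Ensembl release 115. Ranks run from the highest signal, coordinates are 1-based, and a peak could belong to several genes. Sequences came from the RefSeq copy of WBcel235. The listed pqn-85 and F08F8.4 are annotated as scc-2 and eco-1. The code was tested on simulated summits and planted motifs. The work used pandas 2.3.3 and numpy 2.4.6 under Python 3.11.15, with figures from matplotlib 3.10.9.

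The members, lists, windows, motifs and alternatives were chosen with earlier results of these data known. The text names the 6 genes, genes sharing their peaks, and in each comparison list those with a thresholded peak and the next 3 by pooled rank. unc-85 and the genes without a pooled summit were named after their values were seen.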

Additional observations from a re-analysis of the deposited data

How the results depend on the processing

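The count of 1 thresholded gene of 6, wapl-1, was the same with narrower and wider windows, the nearest start, whole peaks in place of summits, the upper 50% of thresholded peaks by signal, the 1000 highest pooled peaks and either replicate's own 550 highest peaks. It was 2 with the 3000 highest pooled peaks, which by construction take in more genes (9.56% of all genes against 2.77%). The partner count of 5 fell to 2 by nearest start (2.55% of all genes) and to 2 in that upper 50% (1.5%), and rose to 9 with 3000 pooled peaks. It was 3 from replicate 2 alone (2.28%) and 3 from replicate 1 alone (2.71%). Except by nearest start and from replicate 1 alone, these counts take in rec-8, whose peak has a limit set by the transgene. The count of 0 for condensin and SMC-5/6 became 6 with 3000 pooled peaks. All 6 genes kept a pooled summit under each window and list length tried, where the share of all genes ran from 28.7% to 57.2%. The count in both replicates ranged from 4 to 5, and that share from 10.1% to 30.3%. CHR-like elements were at 3 summits instead of 5 within 50 bp.

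Ranks of single genes rested on the replicate used. As a percentage of the list, the best peak stood between 0.499 and 0.527 for wapl-1, 7.82 and 8.33 for smc-3, 3.92 and 43.1 for scc-1, 12.9 and 90.9 for coh-1, and 25.6 and 89.0 for him-1. For scc-3 it was 5.86 in replicate 1, with no value in replicate 2. The lists differ in length and mix in background, which bears on these percentages, and the coh-1 values belong to different peaks. The share of all genes with a window peak at least as high was 4.75% and 16.5% for scc-1, 10.8% and 27.9% for coh-1, and 39.0% and 11.3% for him-1, in replicates 1 and 2. The cause of these differences was not tested. Depth is unknown, so a missing peak in the shorter list of replicate 2 is not shown to be missing binding. Annotated starts of trans-spliced worm genes often mark the splice site, which bears on each distance to a start.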
